A study of Mus musculus with 6 samples.

Results

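A set of 9 genes that mark progenitor-type fibroblasts of connective tissue sheaths were followed in mouse perichondrium: Pi16, Dpp4, Dpt, Clec3b, Cd34, Ly6a, Pdgfra, Cd248 and Thy1. They were taken by symbol in the GENCODE M21 annotation. All 9 were among the 55536 genes of the count matrix, and all 9 passed the filter on low counts that left 15712 genes for testing. RNA sequencing was done on limb bone perichondrium at postnatal day 4. There were 3 libraries from Fbn1Scx-/- mice and 3 from WT mice. The Fbn1Scx-/- mice lack Fbn1, which encodes the microfibril protein fibrillin-1, in cells that have expressed Scx-Cre, a recombinase driven by the scleraxis promoter of tendon, ligament and related connective tissue cells. Perichondrial cells that never expressed Scx-Cre keep Fbn1. The labels do not state whether the WT mice carried Cre or a conditional allele, how many animals went into a library, or what the numbers in the library titles stand for. Libraries are called by group and title number, as in mut-596 or WT-795. The values of a group are given in the order of those numbers, so that the first value belongs to mut-596 or WT-596 and the third to mut-795 or WT-795.

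The perichondrium is the fibrous sheath of growing cartilage, and its outer layer is continuous with the loose connective tissue around tendons, vessels and muscle. Fibroblasts with Pi16, Dpp4 and Dpt are found in the adventitia of vessels and in sheaths of many mouse organs, where they are thought to act as a reserve for more specialised fibroblasts. Cd34, Ly6a, Pdgfra, Cd248 and Thy1 are surface proteins used to sort such cells, but none is confined to fibroblasts: endothelial cells also carry Cd34 and Ly6a, mural cells Cd248, and T cells and neurons Thy1.

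Promoter sequences from RefSeq (GRCm38.p6), each from 250 bases before to 50 bases after the annotated start, were found for 5 of the 9 genes: Pi16, Dpp4, Dpt, Cd34 and Pdgfra. The sequences of Pi16, Dpt and Dpp4, the genes most used to name these fibroblasts, are shown 5′ to 3′ on the strand of the gene. Capitals mark matches on either strand to TATAAA, the TATA box, to CCAAT, which binds NF-Y, to GGGCGG, the GC box, or to CAGAC, the SMAD box bound by TGFβ-activated SMAD proteins. The annotated start of Pi16 in RefSeq lies inside the longer gene of GENCODE M21. The Pi16 window is chr17:29318632-29318931 (plus strand), that of Dpt chr1:164796413-164796712 (plus strand) and that of Dpp4 chr2:62412182-62412481 (minus strand).
Pi16: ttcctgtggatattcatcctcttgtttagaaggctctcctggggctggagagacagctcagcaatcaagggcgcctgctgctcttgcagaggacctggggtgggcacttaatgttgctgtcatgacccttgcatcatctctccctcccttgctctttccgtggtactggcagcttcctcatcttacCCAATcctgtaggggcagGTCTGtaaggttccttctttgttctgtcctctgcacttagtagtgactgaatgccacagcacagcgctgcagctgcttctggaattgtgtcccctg
Dpt: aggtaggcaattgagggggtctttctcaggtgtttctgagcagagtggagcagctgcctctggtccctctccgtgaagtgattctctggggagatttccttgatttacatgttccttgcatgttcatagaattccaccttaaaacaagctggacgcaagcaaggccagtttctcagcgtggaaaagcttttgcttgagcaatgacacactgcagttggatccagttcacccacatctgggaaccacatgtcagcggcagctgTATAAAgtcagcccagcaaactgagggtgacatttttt
Dpp4: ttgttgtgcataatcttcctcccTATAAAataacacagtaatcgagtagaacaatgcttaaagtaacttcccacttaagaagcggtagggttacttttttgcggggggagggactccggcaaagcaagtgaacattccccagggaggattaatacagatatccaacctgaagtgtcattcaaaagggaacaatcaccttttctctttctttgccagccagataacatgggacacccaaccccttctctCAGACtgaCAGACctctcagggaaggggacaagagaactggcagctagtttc
A CAGAC match was present in the Pi16 window at -46 from the start, in the Dpp4 window at -2 and 7, and in the Pdgfra window at -146. Dpt and Cd34 had none. Such a match was present in 49.6% of the 32851 promoter windows of this length. TATAAA was present in the Dpt window at 13 from the start, in the Dpp4 window at -227, and in 13.6% of all windows. CCAAT was in the Pi16 window at -64 and in 37.4% of all. No window of the 5 genes held GGGCGG, which 35.7% of all windows held, or TGANTCA (the AP-1 site, 7.81% of all). GGAATG, the TEAD site, was in the Dpp4 window and in 14.7% of all. These matches describe the letters of the windows and were not tested for binding.

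Total counts per library lay between 7209217 and 10316017. Fbn1 itself had 76, 45 and 69 counts in the knockout libraries, against 1255, 898 and 458 in the wild types, and it was the only gene called by edgeR over all 15712 genes (log2 fold change -3.48, edgeR adjusted p = 1.03e-04). The groups differed in sex: mut-596 and mut-597 had 6221 and 4024 counts of Xist, and the other libraries had at most 4. WT-795 stood apart from the other wild-type libraries. It lay inside the range of the 3 knockout libraries for 63.7% of all tested genes, against 32.8% for WT-596 and 28.3% for WT-597. Its genes of high GC content were also low: the median centred log2 CPM of 2189 genes with a transcript GC content of 55% or more was -0.30, -0.03 and -0.18 in the knockout libraries, against 0.29 and 0.36 in WT-596 and WT-597 and -0.12 in WT-795. Results that rest on this library are therefore given with and without it.

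The genes spanned a wide range of levels, given here as TPM, counts per kilobase of merged exons, scaled to the same total in every library. Ly6a, which encodes the GPI-anchored surface protein Sca-1 of mouse stem and progenitor cells, was the highest of the 9 in every library, at 26.8 ± 8.25 TPM in knockout and 34.4 ± 15.8 TPM in wild type (SD, n = 3). Dpt and Clec3b followed. Dpt averaged 9.39 ± 4.30 TPM in knockout and 9.40 ± 3.12 TPM in wild type (SD, n = 3). Clec3b averaged 7.30 ± 1.92 TPM in knockout and 15.9 ± 8.20 TPM in wild type (SD, n = 3). These ranges cross, and Clec3b was above Dpt in mut-795 and in all 3 wild-type libraries. Cd248, Cd34 and Pdgfra formed a middle group, at 5.75 ± 0.52, 5.29 ± 0.84 and 4.15 ± 0.47 TPM in knockout, against 8.95 ± 4.30, 6.25 ± 2.44 and 3.75 ± 0.66 TPM in wild type (SD, n = 3). Within each group of libraries, the means of Cd248 and Cd34 did not differ beyond their spread. Compared within libraries, Cd248 was above Cd34 in each except mut-795. Thy1 was seventh in every library, at 2.45 ± 0.32 TPM in knockout and 2.57 ± 0.72 TPM in wild type. Pi16 and Dpp4 were far below the rest. Pi16 was at 0.369 ± 0.043 TPM in knockout and 0.788 ± 0.480 TPM in wild type. Dpp4 was at 0.348 ± 0.101 TPM in knockout and 0.350 ± 0.166 TPM in wild type. The means of Pi16 and Dpp4 did not differ beyond their spread in either group, but Pi16 was above Dpp4 in each library except mut-596. Among all tested genes by mean TPM, Ly6a stood at percentile 93.3 in knockout and 93.9 in wild type, and Dpp4 at percentile 14.5 in knockout and 13.9 in wild type.

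**Figure D1:**
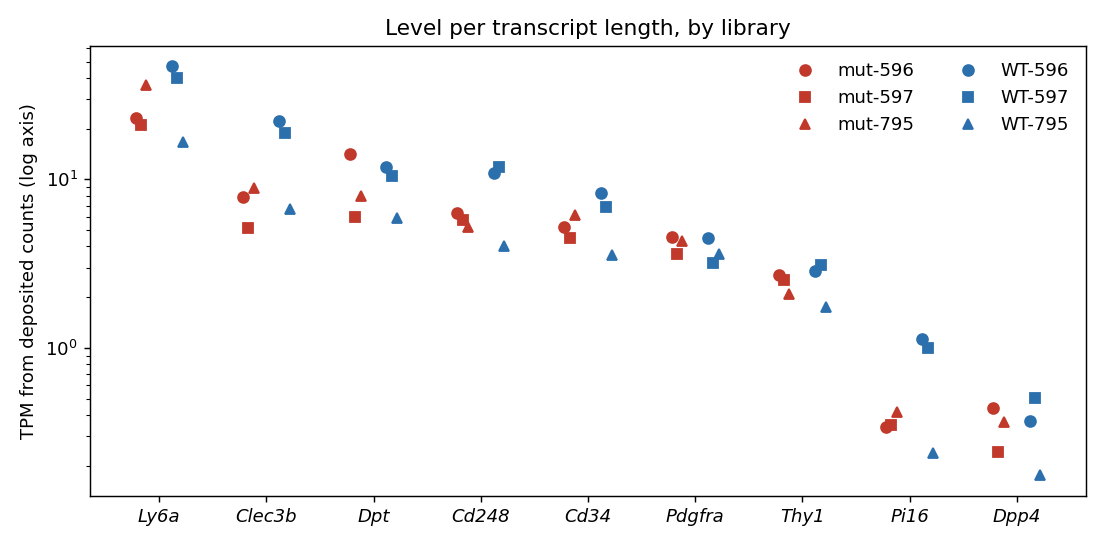
Level of each of the 9 genes in TPM (log axis) in each library, knockout in red and wild type in blue, with the marker shape giving the number in the library title. Ly6a was highest in every library, and Pi16 and Dpp4 lay at the bottom in all of them.

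The clearest low values in knockout were those of Pi16 and Clec3b, which encode secreted or surface-associated proteins. Pi16 (ENSMUSG00000024011) lies on the plus strand at chr17:29317680-29330593 of GRCm38 and encodes peptidase inhibitor 16. It had 32, 35 and 45 counts in the knockout libraries, against 119, 128 and 26 counts in the wild-type libraries. These were 4.23, 5.25 and 4.63 CPM (counts scaled to library size) in the knockout libraries, against 11.3, 12.1 and 3.60 CPM in the wild types. The knockout values lay below WT-596 and WT-597, while WT-795 was the lowest of all 6 libraries, so the groups overlapped. The log2 fold change of knockout over wild type was -0.95 (SE 0.39), a level 1.94-fold lower, which did not pass the edgeR test (adjusted p = 0.459).

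Clec3b (ENSMUSG00000025784, plus strand, chr9:123150946-123157432) encodes tetranectin, a plasminogen-binding C-type lectin of the extracellular matrix. It was at 15.2, 12.1 and 15.3 CPM in the knockout libraries, against 34.9, 35.6 and 15.7 CPM in the wild types. All 3 knockout libraries lay below all 3 wild types, but WT-795 exceeded the highest knockout library only slightly (15.66 against 15.33 CPM). Its log2 fold change was -1.02 (SE 0.29, 95% interval -1.65 to -0.39), with an edgeR adjusted p of 0.459. Permuting the group labels exactly (two-sided, on log2 CPM) gave p = 0.1, and no smaller p can be reached with 3 libraries a group. The same exact permutation test gave p = 0.4 for Pi16.

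Dpt (ENSMUSG00000026574, plus strand, chr1:164796644-164824266), which encodes dermatopontin, a matrix protein that binds decorin and collagen, did not share this pattern. It was at 47.8, 24.4 and 23.9 CPM in the knockout libraries, against 32.4, 34.1 and 24.1 CPM in the wild types. The highest and the lowest library were both knockouts. The log2 fold change was 0.08 (SE 0.28, 95% interval -0.52 to 0.68, edgeR adjusted p = 0.906).

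Dpp4 (ENSMUSG00000035000, minus strand, chr2:62330073-62412231) encodes CD26, a cell-surface protease that removes dipeptides from chemokines and other peptides. It had between 24 and 41 counts in the knockout libraries and between 19 and 64 in the wild types, the fewest of the 9 genes. At 5.41, 3.60 and 4.01 CPM in the knockout libraries, against 3.70, 6.04 and 2.63 CPM in the wild types, the groups overlapped fully. Its log2 fold change was 0.06 (SE 0.37), with a 95% interval from -0.73 to 0.84. At these counts, differences of either sign within that interval remained possible.

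Cd34 and Ly6a, sorting markers shared with endothelial cells, were both lowest in WT-795. Cd34 (ENSMUSG00000016494, plus strand, chr1:194938819-194961279), a sialomucin of the cell surface, was at 74.5, 77.4 and 77.9 CPM in the knockout libraries, against 95.9, 94.9 and 61.5 CPM in the wild types. Ly6a (ENSMUSG00000075602, minus strand, chr15:74994877-74998031) was at 54.4, 59.8 and 75.8 CPM in the knockout libraries, against 89.4, 90.7 and 47.4 CPM in the wild types. For both genes WT-596 and WT-597 were above every knockout library and WT-795 was below every knockout library. The log2 fold changes were -0.14 (SE 0.23) for Cd34 and -0.26 (SE 0.26) for Ly6a, with edgeR adjusted p of 0.795 and 0.660.

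Among the receptors, Cd248 (ENSMUSG00000056481), a gene of 1 exon on the plus strand at chr19:5068078-5070682, encodes endosialin, a transmembrane glycoprotein of fibroblasts and mural cells. It was at 32.0, 35.2 and 23.8 CPM in the knockout libraries, against 45.3, 58.4 and 24.8 CPM in the wild types. WT-795 again lay inside the knockout range, below mut-596 and mut-597. The log2 fold change was -0.51 (SE 0.29, edgeR adjusted p = 0.491). Pdgfra (ENSMUSG00000029231, plus strand, chr5:75152292-75198215), the receptor tyrosine kinase for PDGF and a broad marker of fibroblasts, ran the other way, at 88.5, 86.1 and 75.2 CPM in the knockout libraries against 71.0, 60.3 and 85.4 CPM in the wild types. WT-596 and WT-597 were below every knockout library, and WT-795 was inside the knockout range. Its log2 fold change was 0.21 (SE 0.22, 95% interval -0.26 to 0.67, edgeR adjusted p = 0.671). Thy1 (ENSMUSG00000032011, plus strand, chr9:44043384-44048579), which encodes the GPI-anchored glycoprotein CD90, was at 15.8, 18.0 and 10.9 CPM in the knockout libraries, against 13.6, 17.6 and 12.5 CPM in the wild types. The groups overlapped, with a log2 fold change of 0.03 (SE 0.26, edgeR adjusted p = 0.969).

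**Figure D2:**
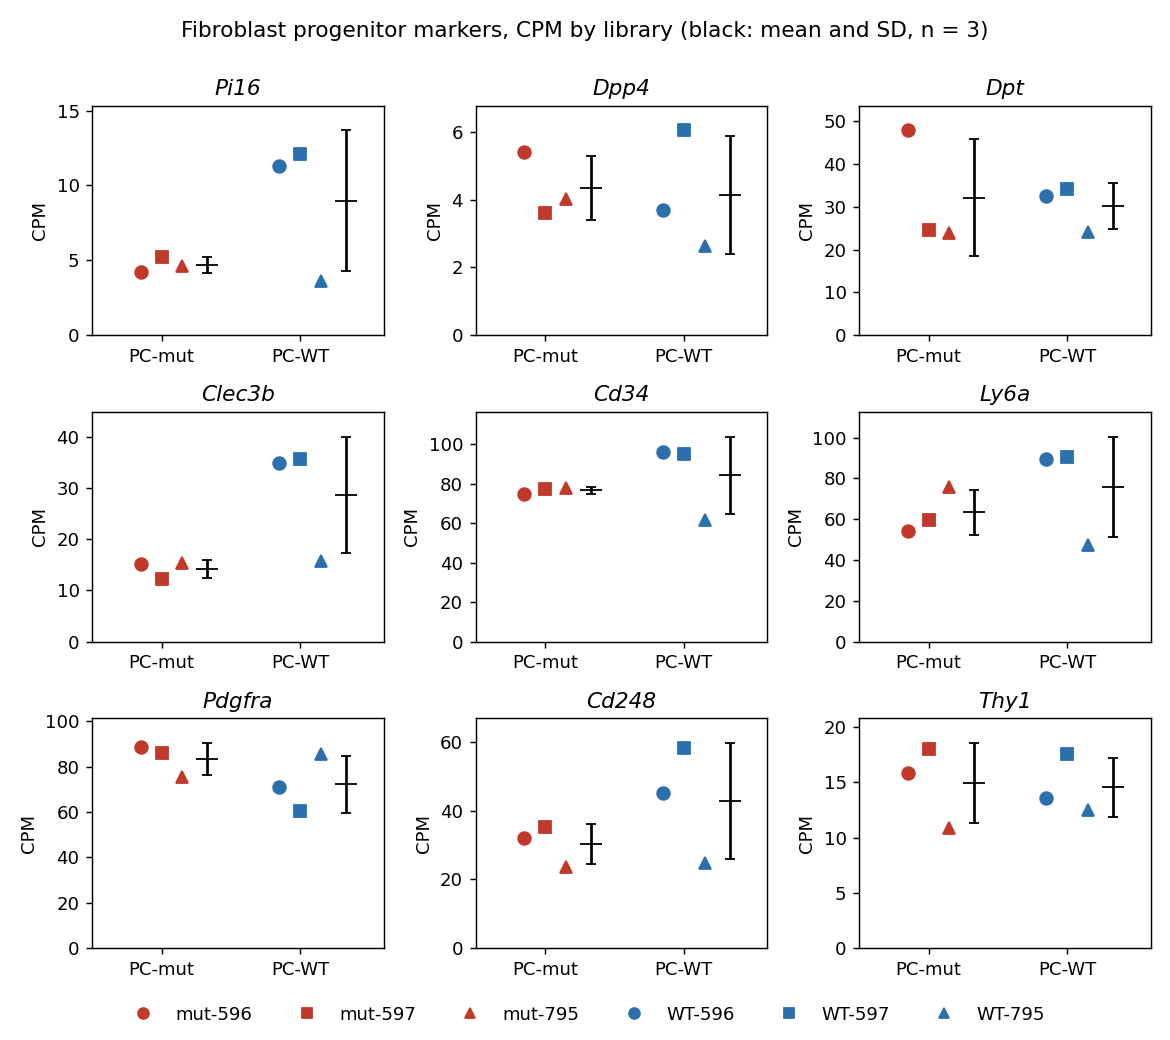
CPM of each gene in each library, with PC-mut (knockout, red) left of PC-WT (wild type, blue), and the mean and SD of 3 libraries in black. In Pi16, Clec3b, Cd34, Ly6a and Cd248, WT-596 and WT-597 lie above all knockout libraries and WT-795 lies near or below them.

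None of the 9 genes passed the edgeR test over all tested genes, where 0.00636% of genes did, namely Fbn1 alone. DESeq2, which called 0.0296% of genes (0.00741% lower), and limma-voom also called 0 of these markers. Before adjustment, Pi16 and Clec3b were past 0.05 in the edgeR model, 2 of the 9, both lower in knockout. Of all tested genes, 10.5% were past that threshold and 7.12% were lower. With no filter on low counts, Clec3b was called lower (-1.04, edgeR adjusted p = 0.0178), where 0.742% of 31958 genes were. The log2 fold change was below 0 in 5 of the 9 genes, with a median of -0.14, against 49.1% of all tested genes and a median of 0.01. Clec3b was the only gene of the 9 whose groups did not overlap, against 6.22% of all genes that were lower without overlap and 5.66% that were higher. In a bulk tissue, fewer cells of a type and less RNA per cell cannot be told apart. The labels do not say that libraries came from separate animals. The tests therefore weigh differences against the variation among the 6 libraries only, which may be technical in part. By its Xist counts, mut-795 differed in sex from mut-596 and mut-597, so it did not come from the same animal as either.

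Leaving out WT-795 changed this picture. Pi16 then fell by 1.34 on the log2 scale (SE 0.28, edgeR adjusted p = 0.0144), Clec3b fell by 1.33 (SE 0.22, edgeR adjusted p = 0.00682) and Cd248 fell by 0.80 (SE 0.23, edgeR adjusted p = 0.0396). These are 3 of the 9 genes, while 6.12% of all tested genes were called lower in that fit and 9.62% were called in either direction. The share was not particular to these genes. In the same fit, 5 of 9 tendon, 6 of 15 skeletal muscle and 3 of 10 osteoblast markers were called lower, and 0 of 14 cartilage markers. Ly6a at -0.53 and Cd34 at -0.34 did not pass (edgeR adjusted p = 0.107 and 0.251), nor did Pdgfra at 0.32 (0.323). Against the remaining wild-type libraries, 5 of the 9 genes were lower without overlap (Pi16, Clec3b, Cd34, Ly6a and Cd248) and Pdgfra was higher without overlap, where 23.6% of all genes were lower and 24.7% were higher. No reason in the labels sets WT-795 aside. It stood out by its values, so the calls made without it are not independent support. Each of the other libraries was also left out in turn, and none of those fits brought any of the 9 genes past the threshold.

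Over the tested genes as a whole, the differences also followed the base composition of the transcripts. Over all tested genes with a mean log2 CPM above 2, the median log2 fold change was 0.28 in 2519 genes with a transcript GC content from 40% to 45%, -0.37 in 1842 genes from 55% to 60% and -0.49 in 405 genes of 60% or more. Clec3b (60.2% GC) and Cd248 (61.3%) belong to the last class, and Pi16 has 54.9%. Cd34 (42.8%) and Dpp4 (42.2%) lie in the class from 40% to 45%, and Dpt, Ly6a and Pdgfra (48.1% to 48.7%) in that from 45% to 50%. Thy1 has 55.8% GC. Cd248 and Dpt lay near the medians of their GC classes, but the other genes did not. Thy1 (0.03 against -0.37) and Pdgfra (0.21 against 0.08) were above their class medians. Pi16 (-0.95 against -0.17), Clec3b (-1.02 against -0.49), Cd34 (-0.14 against 0.28), Ly6a (-0.26 against 0.08) and Dpp4 (0.06 against 0.28) were below theirs. With a per-library correction for this trend, Cd248 was at -0.01 (SE 0.22), Clec3b at -0.53 (SE 0.24) and Pi16 at -0.64 (SE 0.33), none past the edgeR threshold (adjusted p = 0.996, 0.760 and 0.760). Cd34 was then at -0.45 (SE 0.25), Dpp4 at -0.30 (SE 0.39) and Thy1 at 0.34 (SE 0.23), also not past it. When the correction was applied without WT-795, again none of the 9 passed, where 0.719% of all genes did and 0.547% were lower. The lowest adjusted p of that fit was 0.0862, for Cd34 at -0.72 (SE 0.18), and the calls of Pi16 (-0.93, edgeR adjusted p = 0.106), Clec3b (-0.70, 0.145) and Cd248 (-0.15, 0.771) ended.

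**Figure D3:**
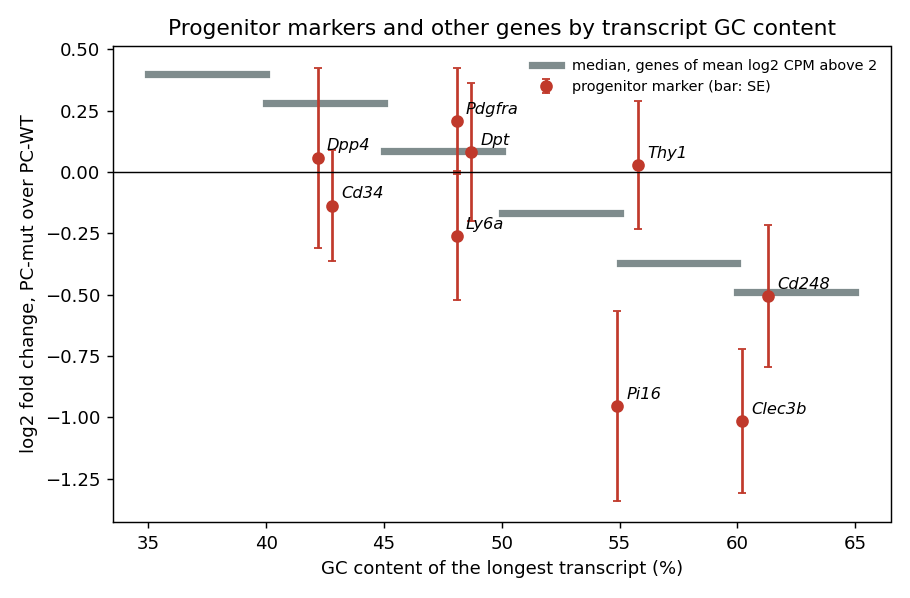
Log2 fold change of knockout over wild type (vertical axis, bars are SE) against the GC content of the longest transcript for the 9 genes, with the median of genes with a mean log2 CPM above 2 in each GC class as grey bars. The grey bars go down as GC content goes up. Cd248 lies on its class median of -0.49, and Dpt lies on its own. Pi16, Clec3b, Cd34, Ly6a and Dpp4 lie below their class medians, and Thy1 and Pdgfra lie above theirs.

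**Figure D4:**
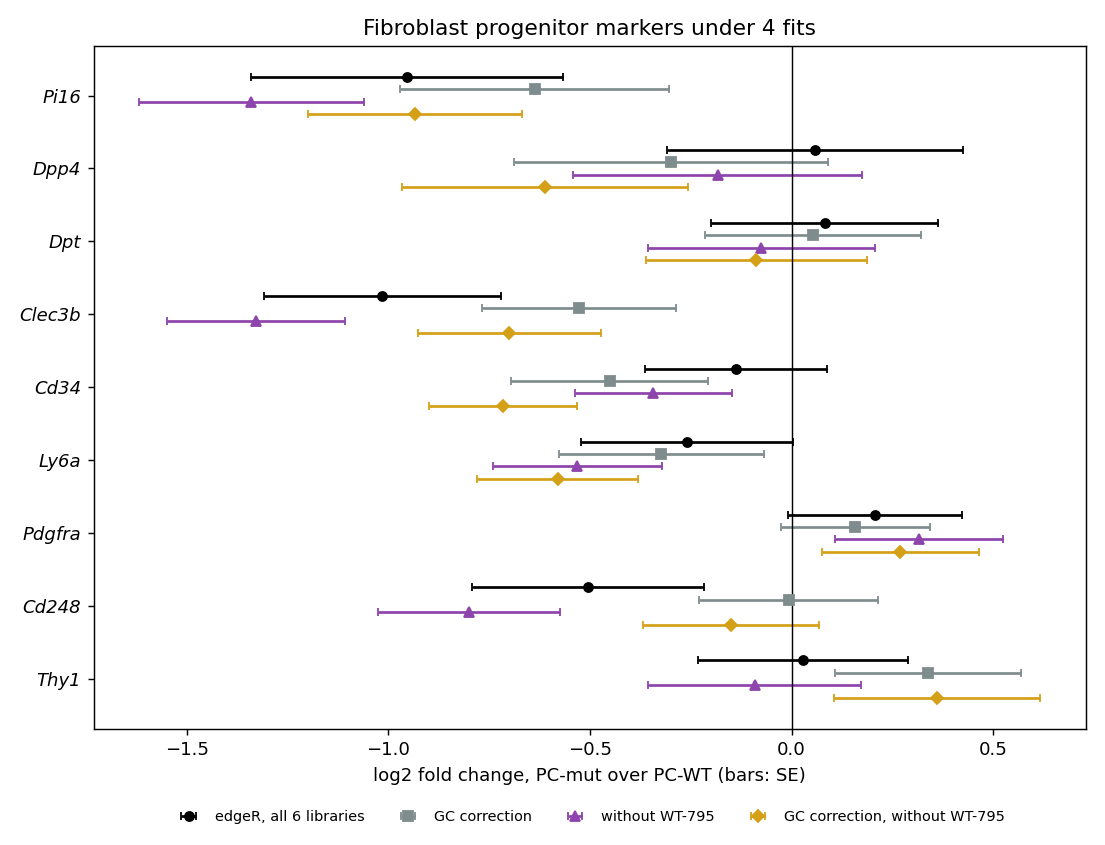
Log2 fold change of knockout over wild type with its SE for the 9 genes in 4 fits: all 6 libraries, with the GC correction, without WT-795, and with both changes. Pi16 and Clec3b are below 0 in all 4, Cd248 moves to about 0 with the GC correction, and Pdgfra is above 0 in all 4.

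The libraries' profiles were alike for some of the genes. As a measure, the log2 CPM of each gene was centred on its mean, and the root mean square difference between 2 genes was taken over the 6 libraries. Cd34 and Ly6a were the most alike of the 36 pairs (0.17), followed by Pi16 and Clec3b (0.27) and by Dpp4 and Dpt (0.27). Pi16 and Pdgfra were the least alike (0.84). Pi16 and Dpt, often used together, were 0.68 apart. The measure is small for any 2 genes that vary little. Pairs of other genes were not measured, so whether any likeness is particular to these markers was not tested.

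Ly6a belongs to a family of related genes on mouse chromosome 15 that share stretches of sequence, and its counts are less certain than the others. Of the 50-base stretches in its annotated transcripts, 19.0% also occur in another gene, mostly Ly6c1, while Clec3b, Dpt, Cd248 and Thy1 share none and the other 4 genes share between 2.14% and 4.93%. Ly6c1, a marker of endothelial cells and of some fibroblasts, was at 38.7, 44.5 and 41.9 CPM in the knockout libraries, against 60.9, 49.2 and 29.7 CPM in the wild types. It too was lowest in WT-795, and its log2 fold change was -0.16 (SE 0.26). Ly6c2 was at -0.23 (SE 0.38). The interferon-inducible family member Ly6e was at 6.47, 18.0 and 15.2 CPM in the knockout libraries, against 49.6, 46.0 and 11.4 CPM in the wild types. Its log2 fold change of -1.44 (SE 0.45) did not pass (edgeR adjusted p = 0.459). Without WT-795 it fell by 1.88 (SE 0.31, edgeR adjusted p = 0.00667), and it fell by 1.47 with the GC correction added (edgeR adjusted p = 0.0297). The other members of the family on the list with any counts, Ly6d, Ly6h, Ly6k, Ly6g, Ly6i, Lypd1 and Lypd2, were too low to test. Antisense genes overlap Pi16, Dpp4, Dpt, Cd34 and Pdgfra, and the library chemistry does not mark strand. The counts assigned to them were 42 beside 385 for Pi16 and 217 beside 4297 for Cd34 over all libraries, and fewer than 10 each for the rest.

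Other genes of adventitial and Pi16-type fibroblasts did not differ as a list. Of 30 genes listed, 28 were tested, of which 13 were above 0 and 15 below, with a median log2 fold change of -0.06, against 0.01 for all tested genes, and edgeR called none. Of its matrix genes, Col14a1 (collagen XIV) was at 0.18, Col15a1 (collagen XV) at -0.26, the proteoglycan genes Dcn and Lum at 0.24 and 0.09, Pcolce2 at -0.05 and the microfibril-associated Mfap5 at -0.10, none past the threshold. With the GC correction Dcn and Lum changed sign, both to -0.22. The progenitor genes Sema3c, Ebf2 and Anxa3 were at 0.36, 0.48 and -0.07, each with an edgeR adjusted p of at least 0.483. Igfbp6, which encodes an IGF-binding protein, resembled Clec3b: it was at 30.5, 43.0 and 33.1 CPM in the knockout libraries, against 95.1, 82.5 and 37.7 CPM in the wild types. Its log2 fold change was -1.02 (SE 0.30, edgeR adjusted p = 0.459), and its transcript has 60.7% GC. Procr, the protein C receptor gene, was at -0.72 (SE 0.40). Cd55, which encodes a complement regulator, was the only gene of the list whose groups did not overlap, against 5.66% of all genes that were higher without overlap. It was at 45.03, 30.3 and 29.5 CPM in the knockout libraries, against 21.8, 22.2 and 24.0 CPM in the wild types, with a log2 fold change of 0.63 (SE 0.23, edgeR adjusted p = 0.459). Uchl1, Tppp3 and Gsn were at -1.33, -0.94 and -0.67 over all 6 libraries, each with an edgeR adjusted p of 0.459. Without WT-795, 4 of the 28 were called, all lower in knockout (Igfbp6, Uchl1, Tppp3 and Gsn), where 6.12% of all tested genes were called lower. None of these 4 passed with the GC correction added. Uchl1, Tppp3 and Gsn have between 56.8% and 57.1% GC.

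**Figure D5:**
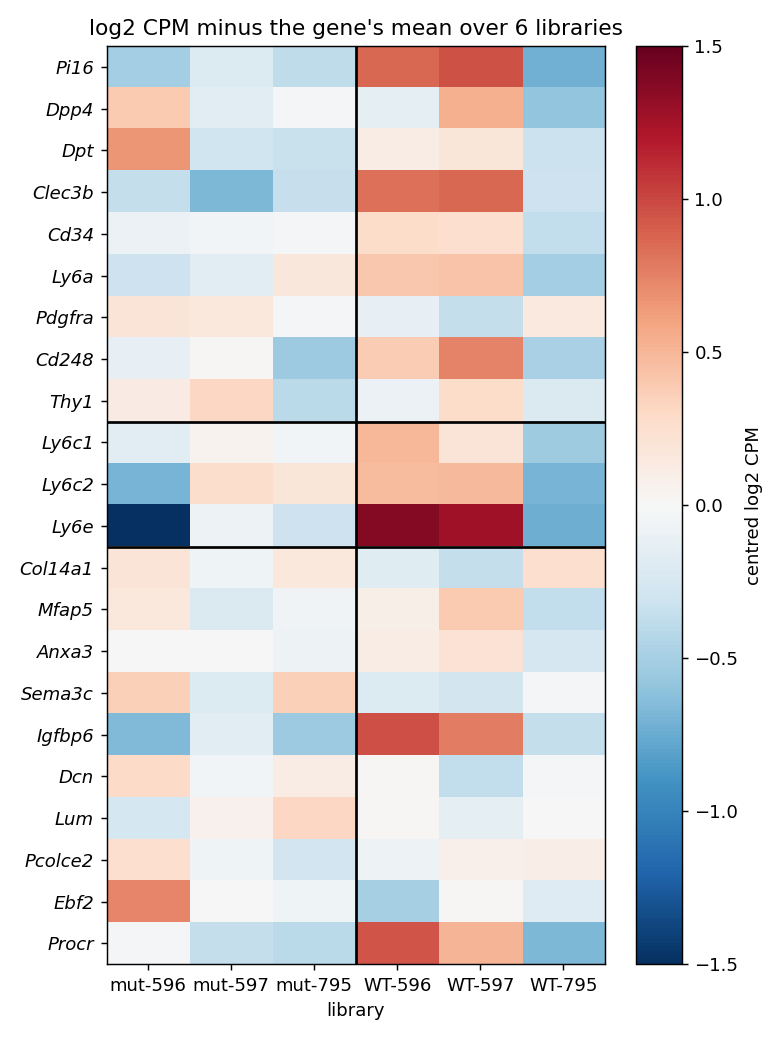
Log2 CPM of each gene minus its mean over the 6 libraries, from blue (lower) to red (higher), for the 9 progenitor markers (top block), 3 Ly6 family genes (middle block) and 10 other adventitial fibroblast genes (bottom block). WT-596 and WT-597 are red and WT-795 blue for Pi16, Clec3b, Cd34, Ly6a, Cd248, Ly6e, Igfbp6 and Procr, among others, and faintly so for Dpt.

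Ligands and partners of these proteins were counted from a list of 18 genes, of which 16 were tested, 7 above 0 and 9 below, with a median of -0.05 and no edgeR call. Pdgfa and Pdgfc, ligands of Pdgfra, were at -0.34 (SE 0.22) and 0.15 (SE 0.25). Pdgfb, the ligand that endothelial cells present to mural cells, was at 2.24, 1.95 and 3.91 CPM in the knockout libraries, against 6.93, 8.11 and 4.16 CPM in the wild types. Its log2 fold change of -1.23 (SE 0.38) did not pass (edgeR adjusted p = 0.459). Of the 16 partners, 4 were lower without overlap (Pdgfa, Pdgfb, Mmrn2 and Dpp9), where 6.22% of all genes were. Pdgfd was at 0.57 (SE 0.32). Fap, the closest relative of Dpp4 and a marker of activated fibroblasts, was at 0.25 (SE 0.25). Podxl, a sialomucin related to Cd34, was at -0.70 (SE 0.29), and Mmrn2, an endothelial matrix protein that binds endosialin, at -0.55 (SE 0.27), neither past the threshold. Dpp9, a cytosolic relative of Dpp4, was at -0.37 (SE 0.27). Without WT-795, Pdgfb fell by 1.47 and Podxl fell by 0.99 (edgeR adjusted p = 0.0253 and 0.0243), and neither passed with the GC correction added (0.243 and 0.116).

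Markers of other cell types that carry these proteins were measured in the same libraries. The 11 endothelial markers summed to between 224 and 273 CPM in knockout and between 239 and 255 CPM in wild type, with a median log2 fold change of -0.03. WT-795 had 254.6 CPM of endothelial markers, against 238.7 and 247.5 CPM in WT-596 and WT-597. By the median centred log2 CPM of the same 11 markers, WT-597 was highest of the wild types (0.063), with WT-795 at 0.032 and WT-596 at -0.146. The part of endothelial content in the values of Cd34 and Ly6a was not tested. Summed levels of 9 mural cell markers, among which Cd248 is not counted, were between 428 and 582 CPM in knockout and between 505 and 582 CPM in wild type. Among blood cell markers, the T cell genes Cd3e, Cd3d and Cd3g had 7, 4 and 7 counts in all 6 libraries together, and the B cell gene Cd79a had 2. The 14 blood and immune markers summed to between 150 and 175 CPM in knockout and between 133 and 234 CPM in wild type. The 9 neural and Schwann cell markers summed to between 36.9 and 78.2 CPM in knockout and between 24.5 and 48.1 CPM in wild type. Of these, 6 were tested, 4 above 0 and 2 below, with a median log2 fold change of 0.54 and no edgeR call. Their part in the values of Thy1 was not tested. Skeletal muscle markers summed to between 3059 and 5911 CPM in knockout, 4994 and 12058 CPM in WT-596 and WT-597, and 3887 CPM in WT-795. Tendon markers were lower in each knockout library (597.4 to 708.2 CPM) than in each wild-type library (760 to 1007 CPM). Cartilage markers summed to between 3008 and 3057 CPM in knockout, against 2118 and 2191 CPM in WT-596 and WT-597 and 3382 CPM in WT-795. The part of muscle, tendon and cartilage content in the values of the 9 genes was not tested further. Fits were made only with the muscle or the cartilage level as a covariate. In these, Pi16 was at -0.58 (SE 0.37) and -0.73 (SE 0.36), and Clec3b at -0.81 (SE 0.29) and -0.88 (SE 0.26). With the muscle covariate, Cd248 was at -0.21, Ly6a at -0.040, Dpt at -0.024 and Cd34 at -0.011. Dpp4, Thy1 and Pdgfra were then at 0.31, 0.16 and 0.094. Neither fit called any of the 9. Genes of the labelled tissue were abundant: 20 perichondrium and periosteum genes summed to between 7455 and 9913 CPM in knockout and between 6054 and 8107 CPM in wild type, and all 20 were tested.

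The authors' deposited table of 1643 differential genes lists 2 of the 9, Pi16 at -0.96 and Clec3b at -1.03. These are the authors' log2 fold changes of knockout over wild type. Of all tested genes, 7.59% are listed there by symbol and 5.57% as lower. No source used here gives the rule by which its genes were chosen. In the DESeq2 fit made here, 1640 genes passed the threshold before adjustment, close to the 1643 listed. Pi16 and Clec3b had unadjusted DESeq2 p of 0.0248 and 0.00147 in that fit. Neither passed after adjustment (DESeq2 adjusted p = 0.432 and 0.211). Whether the table was chosen by unadjusted p was not tested. It comes from the same libraries, so the listing is not independent support.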

How the data were processed

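The authors deposited raw counts, 1 column for each of 6 libraries, with headers that name coordinate-sorted alignment files. The submitters' processing notes name GRCm38.p6 and DESeq2, with no version. Whether counting used strand, or reads with several matches, is in none of the sources used here. Per the labels' protocols, RNA came from a micro-scale column kit and libraries from SMART-Seq v4 cDNA with transposase fragmentation, without molecular identifiers. The authors' deposited table holds log2 fold changes. Its base was judged from the values, 1269 of 1270 matched symbols being within 1e-04 of a DESeq2 log2 fold change.

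Symbols, exon lengths and GC content came from GENCODE M21, which matched all 55536 identifiers. Genes were tested with edgeR 4.0.16 (glmQLFit, glmQLFTest) in R 4.3.3, with TMM scaling, filterByExpr by group, no covariate, two-sided tests and Benjamini-Hochberg adjustment over all 15712 genes, threshold 0.05. Errors of log2 fold changes are their size over the square root of F. CPM use TMM-scaled library sizes, and log2 CPM a prior count of 2. TPM used merged exon length. On simulated counts for this comparison, over 15712 genes, 36% of genes changed 2-fold and 90% of those changed 4-fold were recovered, with 6 false calls. The simulation gave all genes the same biological coefficient of variation (0.249). It held no GC trend, sex difference or deviating library, so it does not give the recovery in the real libraries. Alternatives were other scalings and filters, DESeq2 1.42.0, limma 3.58.1, covariates, a GC correction (loess per library), a replicate block and each library left out with the same genes tested. The replicate numbers of the titles were checked for pairing and did not pair the libraries. The genes and lists were chosen with earlier results of these data known. Of genes named, the 9 and Fbn1 are always given, with fixed genes of the fibroblast, partner and Ly6 lists and any list gene past the threshold. Col15a1, Cd55, Dpp9, Uchl1, Tppp3, Gsn, Lypd1 and Lypd2 were named by list after their values were seen.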

Additional observations from a re-analysis of the deposited data

How the results depend on the processing

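Of 21 alternatives, 19 called none of the 9 genes. Without a filter on low counts, edgeR called 1 of them, Clec3b (-1.04, adjusted p = 0.0178), among 270 genes in all. With each library left out in turn, between 0 and 3 of the 9 and between 1 and 1512 genes in all were called, the highest without WT-795 (962 of them lower). Over all genes, 4 were called by DESeq2 and 4 by the replicate block with GC correction. The GC correction without WT-795, an alternative added after seeing the data, called 113. As mut-596 and mut-597 were the only libraries high in Xist, the fit with the Xist covariate compares mut-795 alone with the wild types. The values given with that covariate therefore rest on a single knockout library. Pi16 was below 0 in all 20 alternatives that tested it (-1.34 to -0.52) and Clec3b in all 21 (-1.33 to -0.51). Cd34 (-0.72 to -0.011) and Ly6a (-0.58 to -0.002) stayed below 0 and Pdgfra (0.060 to 0.32) above 0 in all 21. Their values came nearest to 0 with the muscle covariate for Cd34 and with the Xist covariate for Ly6a and Pdgfra.

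Dpp4, Dpt, Thy1 and Cd248 changed sign, and the cause was not tested. Dpp4 was at -0.30 with the GC correction, -0.18 with the replicate block and GC correction, -0.056 with the Xist covariate, -0.61 with the GC correction without WT-795, and between -0.18 and 0.42 with 1 library left out. Dpt was at -0.17 by limma-voom with sample weights, -0.34 with the Xist covariate, -0.024 with the muscle covariate, -0.087 with the GC correction without WT-795, and between -0.32 and 0.25 with 1 library left out. Thy1 was at -0.008 with upper-quartile scaling, -0.012 with the stricter filter, -0.005 by limma-voom, -0.42 with the Xist covariate, and between -0.13 and 0.21 with 1 library left out. Cd248 was at 0.007 with the replicate block and GC correction. The stricter filter left Pi16 and Dpp4 untested.

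The numbers in the titles did not pair the libraries: same-numbered libraries' deviations from their group means correlated at -0.22, 0.33 and -0.18 across genes. With the replicate block alone Pi16 was at -0.80 and Clec3b at -0.93, and 0 of the 9 and 1 gene in all were called. The median of the adventitial fibroblast list lay between -0.21 and 0.07. Counts under 70 per library limit Dpp4, and Pi16 had only 26 to 45 counts in WT-795 and the knockout libraries. Reads without molecular identifiers are not independent molecules.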

Other observations

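Broad mesenchymal and perichondrial genes that were not among the progenitor markers varied around 0. Of 20 perichondrium and periosteum genes, 11 were above 0 and 9 below, with a median log2 fold change of 0.09, and edgeR called none. Of 18 broad mesenchymal genes, 10 were above 0 and 8 below (median 0.07), with no edgeR call. Without WT-795, the homeobox gene Prrx1 and the transcription factor gene Tcf4 rose (0.76 and 0.72) while the homeobox gene Meox1 and the collagen V gene Col5a1 fell (-0.96 and -1.01), with edgeR adjusted p of 0.0381, 0.0485, 0.0419 and 0.0176. In the perichondrium and periosteum list, Ogn rose (1.10) and Fmod fell (-0.93), with edgeR adjusted p of 0.0251 and 0.0247. Both encode small leucine-rich proteoglycans. In that fit, 9.62% of all tested genes were called. None of these 6 passed with the GC correction added. They were named after their values were seen.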
